A study of Mus musculus with 3 samples.

Results

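The suppressor of cytokine signalling (SOCS) family of the mouse, Cish and Socs1 to Socs7, was described in chromatin-associated RNA of activated macrophages. The members were chosen by gene symbol and made up 8 of the 55536 mouse genes in the tables, of which 22028 were protein-coding. The libraries were ribosomal RNA-depleted total RNA-seq of the chromatin fraction, which is rich in RNA still being made, from bone marrow-derived macrophages (BMDM) of the C57BL/6J strain. All cells had received 100 ng/ml of lipid A for 50 min, which triggers Toll-like receptor 4 as the active portion of lipopolysaccharide. The labels gave no genetic change, and age and sex had not been recorded. The 3 libraries formed 1 group, numbered as biological replicates 1, 2 and 3, and shared 1 donor code, so the spread between them may be partly technical. Untreated cells were not analysed here, so the values are levels after lipid A and no gene can be called induced or repressed from them.

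SOCS proteins are intracellular brakes on cytokine receptors. Cytokines activate Janus kinases (JAK), which phosphorylate receptors and STAT transcription factors, and STATs in turn switch on several SOCS genes, so that the pathway limits itself. Each protein has an SH2 domain that binds phosphorylated tyrosine and a C-terminal SOCS box that recruits a ubiquitin ligase built on elongin B, elongin C and cullin 5. Cish, Socs1, Socs2 and Socs3 are the classical cytokine-inducible members with a short N-terminal region, and Socs4 to Socs7 carry a long one. In macrophages Socs1 and Socs3 are the best known, as brakes on interferon and on interleukin-6 type signals.

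The gene counts summed to between 10496703 and 17687379 per library, and replicate 2, made from the least starting RNA (250 ng, against 1000 ng for replicate 1 and 500 ng for replicate 3), was the deepest. Levels are given as TPM, which are scaled by transcript length and to a fixed total per library to allow comparison between genes. Such comparisons depended in part on the quantification, as described below. Only 16.4% to 22.3% of all TPM went to protein-coding genes, with the lowest share in replicate 2. There, 7 of 8 members also had their lowest TPM, against 63.7% of detected protein-coding genes. Of 9 macrophage markers, 9 were detected, and their TPM summed to between 548 and 599 per library. Among markers of other cell types, 1 of 6 for T cells, 0 of 5 for B cells, 0 of 6 for neutrophils, 0 of 5 for fibroblasts, 1 of 4 for mast cells, 2 of 5 for dendritic cells and 1 of 4 for megakaryocytes were detected. Their highest summed TPM in any library were 2.40, 0.200, 1.02, 0.910, 1.69, 4.06 and 6.64 in that order. Cd3e and Cd3g of T cells and Ly6g of neutrophils had 0 counts in every library, which allows up to 3 counts each. Cd3d also had 0 counts there but a mean of 18.01 TPM in the second quantification described below. In that quantification Cd3g had a mean of 0.588 TPM, Cd3e 0.0446 and Ly6g 0, and Ms4a1 was the highest B cell marker, at 2.63 TPM. The T cell marker detected in the first was Cd4, with 26, 63 and 46 expected counts in replicates 1, 2 and 3 and a mean of 1.52 TPM.

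All members were present, and 1 of them dominated. With at least 10 expected counts in every library as the limit of detection, 8 of 8 members were detected, against 43.9% of all protein-coding genes. Socs3 alone made up 79.5% ± 1.43 (SD, n = 3) of the TPM summed over the family. The median of the 8 mean levels was 3.39 TPM, beside 4.87 TPM for the median detected protein-coding gene and 0.223 TPM for the median of all protein-coding genes. The medians of the inducible and the long members were alike here, 3.12 and 3.39 TPM. In the second quantification described below they were 4.29 and 6.14 TPM. The inducible members held both the highest and the lowest level of the family.

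Socs3, whose protein binds the interleukin-6 receptor subunit gp130 and restrains STAT3, lies on chromosome 11 (GRCm38, chr11:117966079-117970047, minus strand). It had 3259, 3804 and 3728 expected counts in replicates 1, 2 and 3. Its level was 105.5, 64.2 and 93.7 TPM, a mean of 87.8 ± 21.3 TPM (SD, n = 3). All 3 values lay above every value of any other member. It ranked 433 among the 9665 detected protein-coding genes, at the 95.5th percentile. The next member in the order was 12.0-fold lower.

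Cish, the founding member and a known target of STAT5, lies on chromosome 9 (chr9:107296026-107302784, plus strand). Its level was 6.59, 3.63 and 4.36 TPM in replicates 1, 2 and 3, a mean of 4.86 ± 1.54 TPM (SD, n = 3). Replicate 1 was the highest and replicate 2 the lowest. The mean was close to the median detected protein-coding gene. In the second quantification described below it lay further under that median, at 5.97 against 9.22 TPM. Most of the level of Cish went to a transcript that does not encode the protein, as described below.

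Socs1, whose protein binds and inhibits JAK and restrains interferon signalling, lies on chromosome 16 (chr16:10782240-10785536, minus strand). It had only 50, 83 and 65 expected counts, and its level was 1.44, 1.26 and 1.41 TPM in replicates 1, 2 and 3. The mean was 1.37 ± 0.0964 TPM (SD, n = 3), and the libraries lay close together. It stood at the 20.4th percentile of detected protein-coding genes. The level of Socs3 was thus far above that of Socs1 in each library.

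Socs2, best known as a brake on the growth hormone receptor, lies on chromosome 10 (chr10:95385362-95417180, minus strand). It had 15, 16 and 12 expected counts, with exact 95% Poisson intervals of 8.40 to 24.7, 9.15 to 25.98 and 6.20 to 20.96 that cover counting error only. Its level of 0.59, 0.64 and 0.49 TPM in replicates 1, 2 and 3 was the lowest of the family, at the 5.92th percentile. With so few counts its level is imprecise in every library.

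Among the long members, Socs5 was the highest. Socs5, linked to epidermal growth factor receptor signalling like Socs4, lies on chromosome 17 (chr17:87107679-87137839, plus strand). Its level was 10.6, 4.74 and 6.64 TPM in replicates 1, 2 and 3, a mean of 7.33 ± 3.00 TPM (SD, n = 3). Replicate 1 stood above both others. Socs4, on chromosome 14 (chr14:47276931-47296102, plus strand), had 5.37, 2.10 and 4.2 TPM, a mean of 3.89 ± 1.66 TPM (SD, n = 3), with replicate 2 the lowest.

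Socs7, whose protein binds adaptors of receptor tyrosine kinases, lies on chromosome 11 (chr11:97362551-97398542, plus strand). It had 3.05, 2.01 and 3.62 TPM in replicates 1, 2 and 3, a mean of 2.89 ± 0.816 TPM (SD, n = 3). Socs6, whose protein can bind the receptor tyrosine kinase Kit, lies on chromosome 18 (chr18:88665224-88927481, minus strand). Its annotated span is by far the longest of the family, 262258 bases against 3297 bases for Socs1. Its coding transcripts lie between bases 88865169 and 88927481, and the rest of the span belongs to processed transcripts only. Of these the largest mean share was 2.74% of the TPM of Socs6, or 39.9% in the second quantification described below. The level of Socs6 was 2.37, 1.61 and 1.91 TPM, a mean of 1.96 ± 0.383 TPM (SD, n = 3). Both were lowest in replicate 2.

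**Figure D1:**
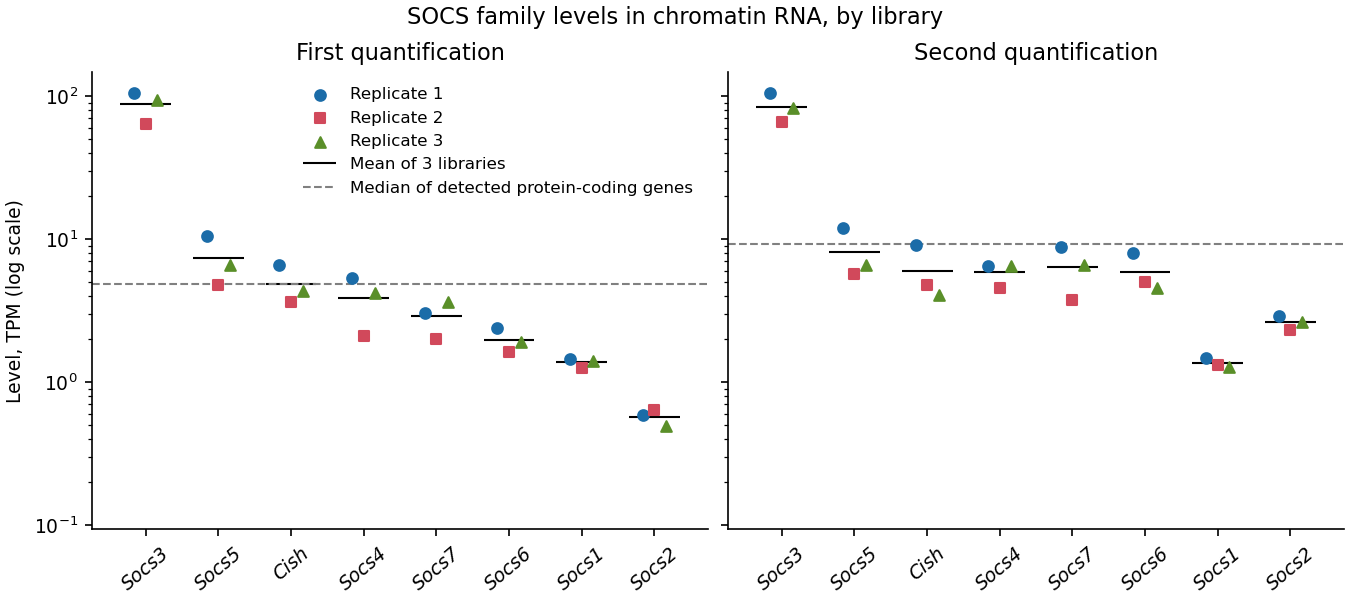
Level in TPM (log axis) of each SOCS gene in each of the 3 libraries, in the first quantification (left) and the second quantification (right); the black line is the mean and the dashed line the median detected protein-coding gene. Socs3 lies above every other member in each library of both panels, while Socs2 is lowest on the left (mean 0.573 TPM) and above Socs1 on the right (mean 2.61 TPM).

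By mean TPM the order was Socs3, Socs5, Cish, Socs4, Socs7, Socs6, Socs1 and Socs2. Of the 7 pairs of neighbours in this order, 3 had ranges over the libraries that did not overlap, namely Socs3 above Socs5, Socs6 above Socs1 and Socs1 above Socs2. The 5 members from Socs5 down to Socs6 thus formed a middle group in which no neighbours lay apart. Within each library of the first quantification, all 7 pairs stood in the same order. Without replicate 1, 5 pairs lay apart, and without replicate 2, 6 did. The order was not tested, because flipping signs over 3 libraries gives no exact p under 0.25.

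The deposited tables held a second quantification of the same libraries, and only Socs3 and Socs5 kept their places in the order. The order there was Socs3, Socs5, Socs7, Cish, Socs6, Socs4, Socs2 and Socs1, and again 3 of 7 neighbouring pairs lay apart. From Socs5 to Socs4 neighbours differed by only 1.01-fold to 1.27-fold and stood in that order in 1 or 2 of the 3 libraries. Its TPM were higher for most genes, with a median ratio to the first of 1.62 over detected protein-coding genes. Socs3, Socs1 and Socs5 hardly moved in TPM, with ratios of 0.964, 0.986 and 1.10, and so fell relative to other genes. The ratio was 1.23 for Cish, 1.504 for Socs4, 2.21 for Socs7, 3.00 for Socs6 and 4.56 for Socs2. Thus 4 of 8 members had a ratio above 1.5, against 58.1% of detected protein-coding genes. Socs3 remained the highest, with 84.6 ± 19.3 TPM (SD, n = 3), but fell from the 95.5th to the 91.7th percentile of detected protein-coding genes. Socs5, Cish, Socs4 and Socs1 also fell, from percentiles of 59.3, 50.0, 44.3 and 20.4 to 46.5, 38.1, 37.6 and 8.76. Socs7, Socs6 and Socs2 rose, from 37.1, 28.0 and 5.92 to 39.9, 37.7 and 19.1.

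Socs2 depended most on the quantification. The second quantification gave it 101, 103 and 111 estimated counts in replicates 1, 2 and 3, and 2.89, 2.30 and 2.65 TPM. These levels lay above those of Socs1 (1.46, 1.32 and 1.27 TPM) in every library, the reverse of the first quantification. The posterior mean TPM, a further estimate in the gene tables, also gave Socs2 a higher level, 2.25 ± 0.420 TPM (SD, n = 3). That was 3.92 times the first value, and Socs2 was the 1 member with a ratio above 1.5 on this measure, against 12.9% of detected protein-coding genes. Socs2 has 14 annotated transcripts, the most of the family. Which of Socs1 and Socs2 was the lower therefore cannot be stated from these files.

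Differences between libraries were compared in a chi-square test of the counts against TMM-scaled library sizes, with Benjamini-Hochberg adjustment over 13262 genes with a mean of at least 10 counts. The test compares these libraries beyond counting noise and says nothing of conditions. It called 4 of 8 members, Socs3, Socs4, Socs5 and Cish, against 58.6% of all tested genes. The share of members was thus no higher than the background. The chi-square adjusted p was 1.13e-17 for Socs4, 1.97e-12 for Socs3, 5.44e-05 for Socs5 and 1.99e-04 for Cish. For Socs6, Socs1, Socs2 and Socs7 it was 0.462, 0.617, 0.673 and 0.904. Without replicate 1 the test called 2 members, Socs3 and Socs4, against 26.6% of tested genes. Without replicate 2 it called 2 others, Cish and Socs5, against 46.9%.

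In normalised counts, CPM after TMM scaling, most members varied little. Socs4 had 39.2, 21.4 and 34.6 CPM in replicates 1, 2 and 3, so replicate 2 lay apart from both others, and the range was 0.88 on the log2 scale. Without replicate 2 the range of Socs4 was 0.18. Socs3 had 270.8, 231.4 and 268.3 CPM, with replicate 2 the lowest and a range of 0.23, which was 0.01 without it. The coefficient of variation of Socs3 was 24.3% in TPM and 8.58% in normalised counts.

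Socs5 had 35.4, 26.6 and 27.0 CPM in replicates 1, 2 and 3, a range of 0.41 on the log2 scale, and Cish had 28.4, 21.5 and 20.9 CPM, a range of 0.44. Both stood higher in replicate 1, and without that library their ranges were 0.02 and 0.04. Socs7 had 19.0, 19.3 and 18.5 CPM and was the steadiest member, with a range of 0.06. The range was 0.26 for Socs6, 0.28 for Socs1 and 0.52 for Socs2, whose counts were few. The median range of the members over all libraries was 0.34, beside 0.61 for all tested genes, whose quartiles were 0.36 and 0.94. Over 2 libraries the median of the members was 0.10 without replicate 1 and 0.22 without replicate 2. A range over fewer libraries tends to be smaller, and that of all tested genes over 2 libraries was not computed. By CPM, 6 of 8 members were highest in replicate 1, against 41.9% of tested genes, 2 were highest in replicate 2, against 32.7%, and 0 in replicate 3, against 25.5%. Replicate 1 had the most starting RNA and the highest protein-coding share of TPM, and the part of these in the result was not tested. The lowest CPM fell in replicate 3 for 4 members, in replicate 2 for 3 and in replicate 1 for 1. By TPM 7 of 8 were lowest in replicate 2, among them Socs1 and Socs7, which were highest there by CPM. The share of all tested genes lowest in each library by CPM was not counted.

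**Figure D2:**
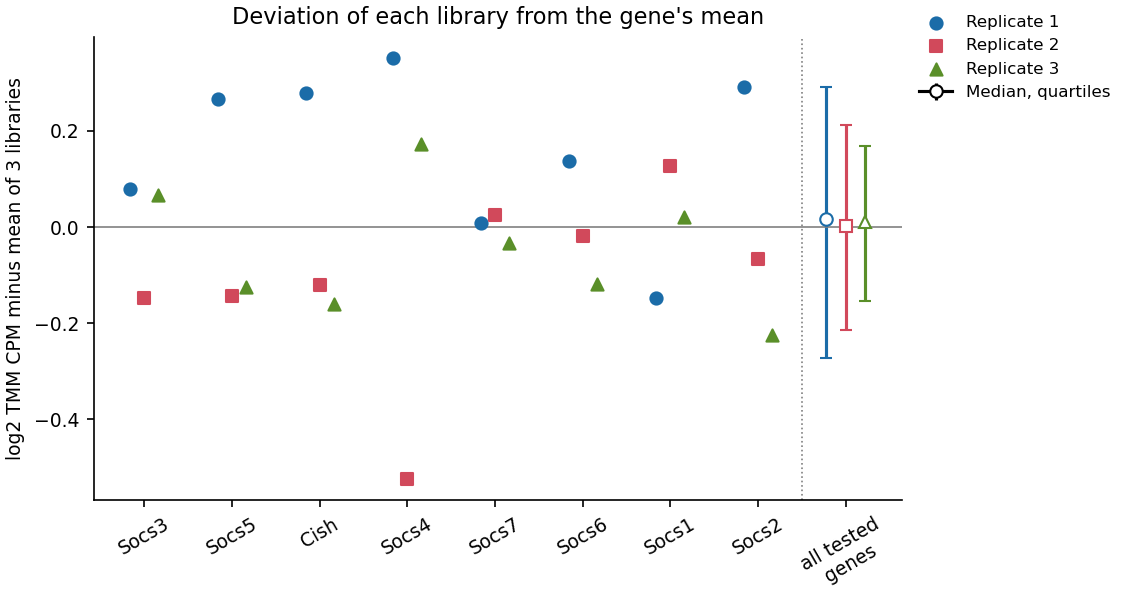
Deviation of each library from the gene's mean over 3 libraries, in log2 TMM-normalised CPM, for each SOCS gene; open symbols with bars at the right are the median and quartiles of all tested genes. Socs4 in replicate 2 (-0.52) is the farthest point, and all 3 Socs7 points lie near 0.

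The tables also divided each gene among its annotated transcripts. Cish had the largest mean share of the family in transcripts not classed as protein-coding. In replicates 1, 2 and 3, Cish-202, a processed transcript with no coding sequence, took 71.6%, 65.7% and 70.0% of the TPM of Cish. All 3 libraries thus gave it the largest share. Cish-202 is 4697 bases long and contains 2772 of the 2889 bases of intron 1 of the coding transcript Cish-201 (96.0%) but 0 of the 223 bases of intron 2. Cish-201, with all 3 exons of the full protein, took 1.67%, 4.12% and 3.21%. Cish-204, a shorter coding transcript that joins exon 1 to the last exon, took 26.7%, 30.2% and 26.8%. The annotated coding sequence of Cish-204 is 186 bases, against 771 bases for Cish-201. Coding transcripts together had 1.48 ± 0.342 TPM (SD, n = 3) of the 4.86 TPM of the gene. Cish-204 made up 1.34 TPM of this and Cish-201, with the full protein, only 0.133 TPM.

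The bases that follow exon 1 of Cish show what tells the 3 transcripts apart. Each line gives 15 bases of exon 1 in lower case, ending at base 107297034 of chromosome 9 (plus strand), and in capitals the next 15 bases of the transcript, from the GENCODE M21 transcripts.
Cish-201: cctttgcgtacagggATCTTGTCCTTTGCT
Cish-204: cctttgcgtacagggGGTGGTACTGGGGTT
Cish-202: cctttgcgtacagggGTAAGCTCAGTTTTT
Cish-201 goes on into exon 2 and Cish-204 into the last exon, whereas Cish-202 reads on into intron 1. Reads from unspliced Cish RNA and reads from Cish-202 share this intron, and the tables cannot tell them apart.

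**Figure D3:**
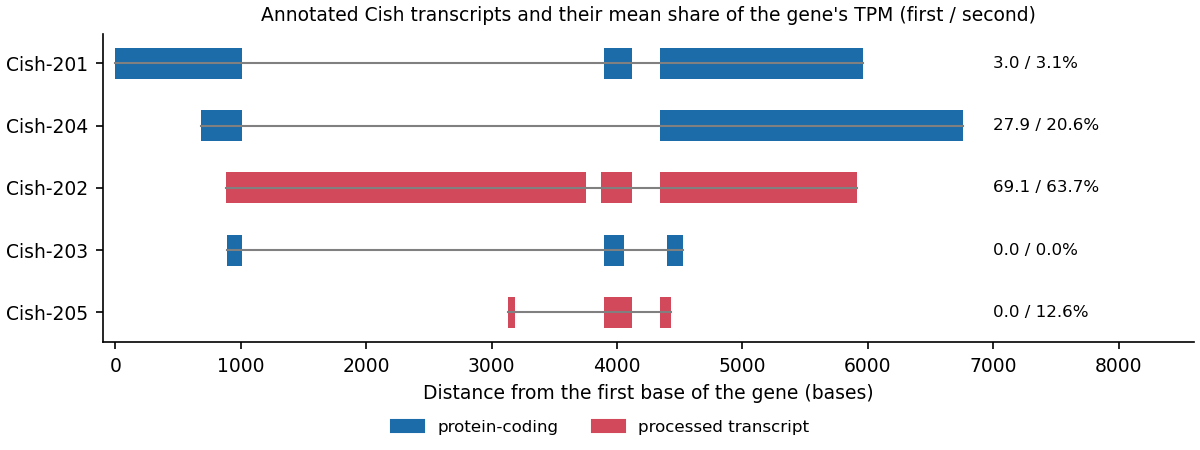
Annotated Cish transcripts, drawn by distance in bases from the first base of the gene, with exons as boxes (blue, protein-coding; red, processed transcript) and the mean share of the gene's TPM in the first and the second quantification at the right. Cish-202 spans most of the first intron and holds the largest mean share in both, 69.1% and 63.7%.

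The second quantification gave Cish-202 57.8%, 58.1% and 75.03% of the TPM in replicates 1, 2 and 3, and a further processed transcript, Cish-205, 21.5%, 16.3% and 0%. Transcripts not classed as protein-coding together held 69.1% ± 3.08 (SD, n = 3) of Cish in the first and 76.3% ± 2.68 in the second. The median over detected protein-coding genes with such a transcript was 47.6% in the first (8085 genes) and 57.04% in the second. The upper quartiles were 66.3% and 75.4%, so Cish lay only a little above them. Shares above 50% were common, found in 46.8% of those genes in the first quantification and 59.0% in the second.

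Socs3 was at the other extreme. Its only coding transcript took 99.7% of the TPM in each library, and transcripts not classed as coding held 0.272% ± 0.0106 (SD, n = 3), or 3.14% ± 1.15 in the second quantification. The gene has 2 exons and a span of 3969 bases. Socs1, with a span of 3297 bases, has 2 coding transcripts and no other. In replicates 1, 2 and 3, the shorter of them took 62.1%, 88.1% and 0% of the TPM, so their division was unstable between libraries. Both carry a coding sequence of 636 bases.

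Among the longer genes the shares depended on the quantification or the library. A processed transcript of Socs5, of which 87.6% lies outside the exons of its coding transcripts, took 53.2%, 30.9% and 36.7% of the TPM in replicates 1, 2 and 3. The second quantification gave it 57.7%, 37.1% and 39.1%, so replicate 1 was the highest in both. In coding transcripts alone, Socs5 had 4.97, 3.27 and 4.2 TPM, a narrower spread than for the whole gene. The processed transcript of Socs7 took 17.0%, 9.95% and 40.9% of its TPM, but 62.2%, 44.6% and 67.1% in the second quantification. For Socs6 the share not classed as coding was 4.95% ± 2.58 (SD, n = 3) in the first and 41.6% ± 4.36 in the second, most of the latter in 1 processed transcript of 8 exons. For Socs2 it was 20.5% ± 12.4 and 73.2% ± 7.12. Socs6, Socs7 and Socs2 were also the members with the largest ratios between the quantifications.

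**Figure D4:**
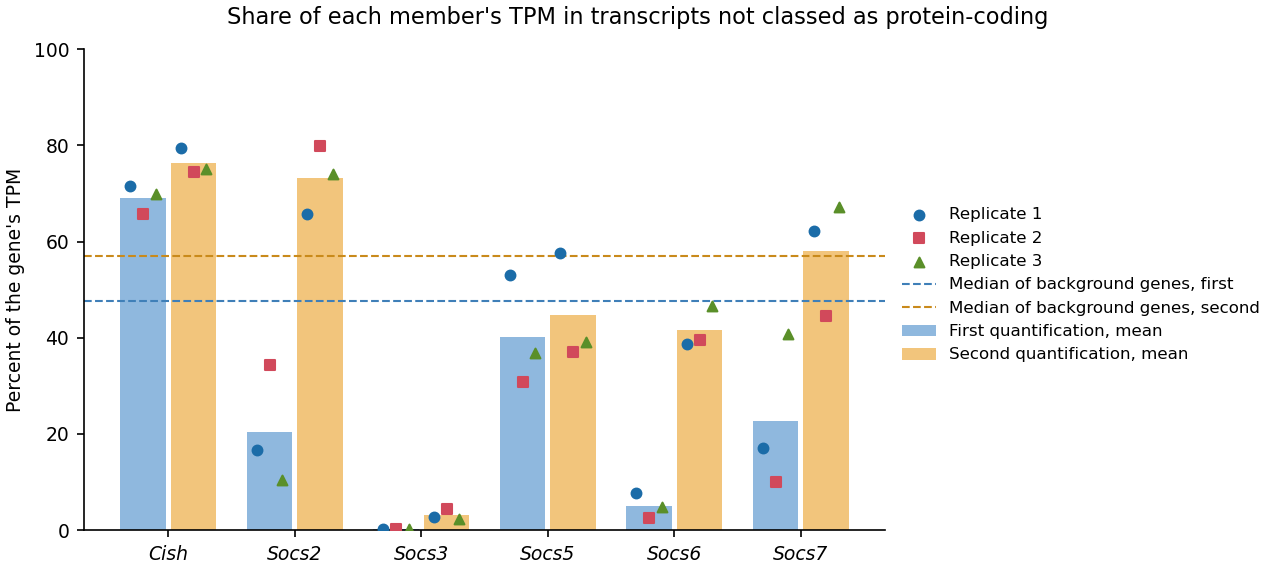
Percent of the TPM of a SOCS gene in transcripts not classed as protein-coding, in the first (blue) and second (orange) quantification, with the mean as a bar and each library as a point; dashed lines are the medians over detected protein-coding genes with such a transcript. Cish is high in both (69.1% and 76.3%), Socs3 is near 0 in both, and Socs2, Socs6 and Socs7 are higher in the second; Socs1 and Socs4 have no such transcript.

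Counting coding transcripts alone, the family median was 2.01 TPM, and Socs3 remained the highest with 87.6 ± 21.3 TPM (SD, n = 3). Cish moved most, from 4.86 to 1.48 TPM. This count was added after the transcript shares had been seen.

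RefSeq promoter windows (GRCm38.p6), running from 250 bases before to 50 bases after the start, were given for 4 of 8 members, namely Cish, Socs1, Socs3 and Socs4. They were searched on both strands for the STAT motif GAS (TTCNNNGAA), its variant with 4 free bases (TTCNNNNGAA), the interferon-type motif ISRE (TTTCNNTTTC), AP-1 (TGACTCA or TGAGTCA), the NF-kB consensus and the TATA box (TATAAA). Of all 32851 windows, 8.30% held the GAS motif, 6.95% its variant, 3.44% the ISRE, 5.20% AP-1, 8.46% NF-kB and 13.6% the TATA box. A match describes letters and not binding, and binding was not measured here. Position 1 is the start, and upstream positions are negative.

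The Socs1 and Socs3 upstream sequences are shown because each holds a STAT-type or interferon-type match. They are the 250 bases before the start, read in the direction of the gene, with matches in capitals. Socs1 is at chr16:10785537-10785786 and Socs3 at chr11:117969367-117969616, both on the minus strand.
Socs1: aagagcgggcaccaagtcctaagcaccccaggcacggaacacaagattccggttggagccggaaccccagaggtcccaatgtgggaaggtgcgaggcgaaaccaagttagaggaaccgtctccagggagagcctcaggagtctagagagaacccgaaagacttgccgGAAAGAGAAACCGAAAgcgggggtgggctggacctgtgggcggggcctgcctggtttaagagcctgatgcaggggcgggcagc
Socs3: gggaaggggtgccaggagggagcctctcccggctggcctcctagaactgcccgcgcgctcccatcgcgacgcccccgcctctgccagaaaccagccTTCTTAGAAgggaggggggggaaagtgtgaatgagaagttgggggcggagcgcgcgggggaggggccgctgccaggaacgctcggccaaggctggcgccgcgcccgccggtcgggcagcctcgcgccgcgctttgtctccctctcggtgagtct
In Socs1 an overlapping pair of ISRE matches, at -83 to -74 and -77 to -68, lies on the strand opposite to the gene. Socs3 has a single GAS match, at -154 to -146. The RefSeq start of Socs3 used here lies 180 bases before that of its GENCODE coding transcript, so the bases next to the latter are outside this window, and 77 of the bases shown belong to an exon of a processed transcript.

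In Cish both GAS matches lie just after the RefSeq start, at 1 to 9 and 12 to 20, within exon 1 of Cish-201. Cish-204 and Cish-202, which together held most of the TPM, start further on, at bases 107296710 and 107296907. For these transcripts both matches lie before the annotated start. All 250 bases searched before the RefSeq start belong to exon 1 of Cish-201 too, so the bases before the start of Cish-201 were not searched. The 30 bases from -4 to 26 (chr9:107296655-107296684, plus strand) are shown with the matches in capitals.
Cish: agttTTCCTGGAAagTTCTTGGAAatctgt
At least 2 GAS matches were found in 0.457% of all windows. Socs4 held none of the motifs searched. The GC content of the 300 bases was 73.3% for Socs3, 70.7% for Socs4, 63.3% for Socs1 and 53.3% for Cish, beside a median of 52.7% over all windows. Socs3 and Socs4, far apart in level, thus had like base composition.

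Neighbouring genes covered a wide range of levels. Socs4 is the closest to others, since Wdhd1, on the opposite strand, starts 74 bases from it and Mapk1ip1l, on the same strand, begins 2164 bases after its end. Mapk1ip1l had 58.6, 24.1 and 36.1 TPM in replicates 1, 2 and 3, 39.6 ± 17.5 on average (SD, n = 3). Wdhd1 had 8.09, 5.26 and 5.70 TPM. Both were lowest in replicate 2, as were Socs4 and 63.7% of detected protein-coding genes. The strand setting of the quantification was not given in the sources used here, and whether reads of these genes reached Socs4 was not tested.

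Around Socs3, Tha1 had 3.32 ± 1.16 TPM and Pgs1 59.8 ± 6.66 TPM (SD, n = 3), and Pgs1 lies 16245 bases away on the opposite strand. The protein-coding gene nearest to Socs1, Tnp2, was listed at 0 counts in all libraries, and Clec16a on its other side had 13.1 TPM. Next to Cish, Mapkapk3 had 51.1 ± 10.9 TPM and Hemk1 4.95 TPM. Cradd (2.24 TPM) and Mrpl42 (0.5 TPM) flank Socs2, Cript (2.76 TPM) and Mcfd2 (18.4 TPM) flank Socs5, and Gpr179 (0.0333 TPM) and Arhgap23 (4.07 TPM) flank Socs7. Socs6 lies between Gm5096, at 0 counts, and Rttn, at 24.2 TPM. Antisense or pseudogenes overlap Cish and Socs6, and each had at most 2 expected counts in any library.

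The genes most like Socs3 over the 3 libraries, by Euclidean distance in log2(TPM + 0.1), were Fgd4, Ikbkb and Thoc2, at distances of 0.12, 0.13 and 0.15. Ikbkb had 103.6, 68.2 and 88.3 TPM in replicates 1, 2 and 3. For Socs5 they were Purb, Tstd2 and Aida, at 0.07, 0.08 and 0.11. With 3 libraries of 1 condition such nearness says little. Within a wider distance of 0.5 lay 121 detected protein-coding genes for Socs3 and 206 for Socs5.

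The kinases and STATs that SOCS proteins act on were higher than most members. All 4 Janus kinases were detected, with a median of 32.2 TPM. Jak1 had 64.4 ± 17.0 TPM, Jak2 35.3 ± 17.0, Tyk2 29.2 ± 2.49 and Jak3 8.75 ± 3.28 (SD, n = 3). All 7 STATs were detected, with a median of 33.9 TPM. Stat6 led with 72.9 ± 5.55 TPM, ahead of Stat2 (55.9), Stat3 (33.9) and Stat5a (33.3). Stat5b, at 2.40 TPM, and Stat4, at 1.37 TPM, were in the range of the lower SOCS members. The mean level of Socs3 lay above that of each kinase and STAT named in the first quantification, although Stat6 (69.6 TPM) was above Socs3 (64.2 TPM) in replicate 2. In the second quantification Jak1 (172 TPM), Stat6 (115 TPM) and Stat2 (89.9 TPM) were above Socs3 (84.6 TPM), so this ranking depends on the quantification.

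Of 20 receptor genes of the pathway 14 were detected, with a median of 23.4 TPM, led by Csf2ra (102), Il10rb (89.6) and Il10ra (65.9), and Prlr was listed at 0 TPM. Of 12 cytokine genes 10 were detected, with a median of 7.49 TPM. Il10, whose product signals through STAT3, had 51.3, 31.5 and 65.4 TPM in replicates 1, 2 and 3. Il12b had 51.2, 3.43 and 16.9 TPM and Ifnb1 15.7, 4.95 and 28.2 TPM. All 3 cytokines were lowest in replicate 2, as were 63.7% of detected protein-coding genes. Il12a was the lowest of the list, at 0.120 TPM. The chi-square test between libraries called 10 of 10 tested cytokine genes and 10 of 14 tested receptor genes, against 58.6% of all tested genes.

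Other brakes of the pathway were detected in 12 of 12 cases, with a median of 11.7 TPM, above that of the SOCS genes. The phosphatase genes Ptprc (344 ± 157 TPM, SD, n = 3) and Ptpn1 (21.4 ± 5.14 TPM) and the ubiquitin ligase gene Cbl (53.6 ± 3.39 TPM) led them, and Pias3 was lowest at 2.76 TPM. Components that work with the SOCS box were detected in 9 of 9 cases, with a median of 5.60 TPM. Arih2, a ligase partner of cullin 5 complexes, had 165 ± 21.97 TPM, Ube2f, the NEDD8-conjugating enzyme for cullin 5, 156 ± 45.1 TPM, and Eloc (elongin C) 11.3 ± 2.45 TPM, while Rnf7 was lowest at 1.12 TPM. Of 26 other genes with a SOCS box 10 were detected, a share near the 43.9% of all protein-coding genes, with a median of 0.387 TPM. Wsb1 (305 ± 51.2 TPM) and Wsb2 (68.7 ± 5.24 TPM) were far above the rest, followed by Asb6 (7.72 TPM), and 5 of these genes had 0 counts.

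**Figure D5:**
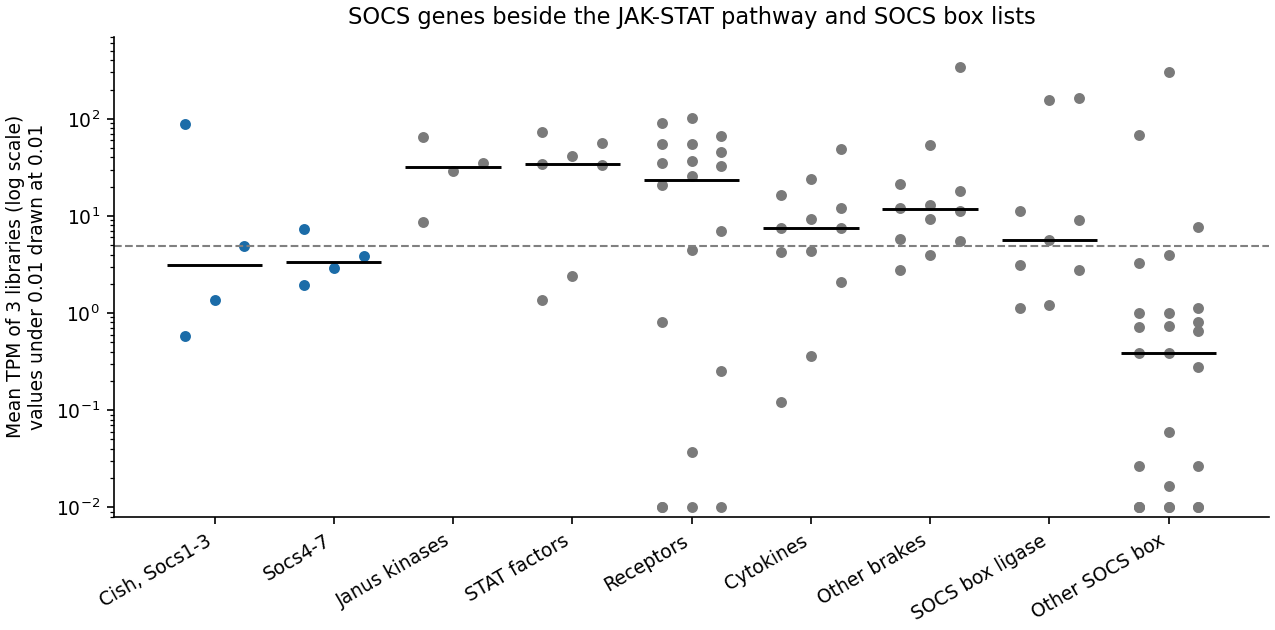
Mean TPM over 3 libraries (log axis, values under 0.01 drawn at 0.01) of each SOCS gene (blue) and of each gene of 7 lists (grey); black lines are medians and the dashed line is the median detected protein-coding gene. Medians are 32.2 TPM for the Janus kinases and 33.9 TPM for the STATs, against 3.12 and 3.39 TPM for the SOCS groups, while the other SOCS box genes have a median of 0.387 TPM.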

How the data were processed

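Gene and transcript tables of 3 libraries were used. The deposited gene tables held TPM and expected counts, which are estimates and can be fractional, per the file headers. A deposited table of another layout listed estimated counts and TPM for each transcript and is called the second quantification; it was summed per gene. The first came from transcriptome alignments and the second from the reads, on mm10 with GENCODE M21, per the deposited notes. The strand setting and the tools behind both are not given in the sources used here. Rows naming no mouse gene held 0.383% to 1.28% of counts and were left out. Expected counts were rounded, scaled by TMM (edgeR 4.0.16, R 4.3.3) and, before log2, raised by 0.5. Detection required 10 or more expected counts in all 3 libraries. The chi-square test was also run on simulated counts that varied by counting noise, as the test assumes, with changes set in some genes. That run cannot show how the test behaves where libraries vary more than this. A gene was called at an adjusted p under 0.05.

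Members and lists were chosen with earlier results of these data known. The text names all members, all Janus kinases, the STATs except 1 that is not reported here, the 3 highest and the lowest gene of each other list, the nearest protein-coding gene on each side of a member, and the 3 detected genes most like Socs3 and Socs5. Of the markers of other cell types, those named were chosen after their values were seen. Alternatives were another scaling, count limit or quantification, and leaving out each library. The planned protein comparison was not made.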

Additional observations from a re-analysis of the deposited data

How the results depend on the processing

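Detection was 8 of 8 members under each alternative except a limit of 50 counts, which left 7. The family median moved from 3.39 to 5.93 TPM in the second quantification and to 16.8 TPM when TPM were rescaled over protein-coding genes, and to 2.01 TPM in coding transcripts alone, an alternative added after seeing the data. It was 3.58 TPM with posterior means, also added later, and 2.98 to 4.06 TPM without 1 library. The number of neighbours apart was 3 to 6 without 1 library, 3 in the second quantification, 4 after rescaling and 2 with posterior means or coding transcripts. Members called between libraries numbered 2 to 4 without 1 library, against 26.6% (without replicate 1), 46.9% (without replicate 2) and 52.4% (without replicate 3) of tested genes, and 6 with library totals in place of TMM, against 62.4%. The same 4 members were called with DESeq2 size factors, against 58.6% of tested genes, and with no count filter, against 34%. They were also called with a mean of at least 50 counts, against 74.4%, and in the second quantification, against 56.2%. The median log2 range of all 8 members was 0.63 with library totals and 0.10 to 0.32 without 1 library, a range over only 2 libraries. Cish-202 held 63.7% in the second quantification. There the list medians were 57.5 TPM for Janus kinases, 58.0 for STATs, 53.1 for receptors, 13.6 for cytokines, 19.6 for other brakes, 16.5 for SOCS box partners and 0.906 for other SOCS box genes. The cause of these shifts was not tested. No paired analysis was possible because there is 1 group. Depth limits Socs2 and Socs1 most.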
